A study of Mus musculus with 15 samples.

Results

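The proteasome genes described here were all genes on the array whose symbol begins with Psm, then a letter from a to e, then a number, which takes in the subunits of the proteasome, its activators and several of its assembly factors. The rule found 44 genes of 22180 measured, each represented by its brightest probe set on average over the 15 arrays. It used no difference between groups. Of the 44 genes, 42 encode subunits, activators or assembly chaperones, and 2 match by name only (Psmc3ip, a meiotic recombination factor, and Psme3ip1). By role there were 7 alpha subunits and 8 beta subunits of the core, 3 immunoproteasome subunits, 6 ATPases and 3 other subunits of the base, 8 subunits of the lid, 3 chaperones of base assembly and 4 activators. Psma4 was not analysed here, because its probe sets carried several symbols.

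The cells were mouse melanocytes of the immortal line melan-Ink4a-Arf-1 (melan-a), derived from Cdkn2a tm1RDp/tm1RDp mice, which lack both products of the Ink4a-Arf locus. All cultures received a phorbol ester and cholera toxin in the medium. There were 5 groups of 3 arrays. Normoxia cells were kept at about 21% oxygen and 10% CO2, and the other 4 groups at 1% oxygen and 5% CO2 for 24 h, so oxygen and CO2 changed together. The hypoxia control and the negative control differed only by name in the labels, which do not say what either received. Si1 and Si6 were different small interfering RNAs (siRNAs) against Hif1a, the oxygen-regulated subunit of a transcription factor that drives the response to hypoxia, transfected 24 h before hypoxia. One line was used throughout, and the deposited design calls the 3 arrays of a condition biological triplicates, without saying how the cultures were separated. The study asked which hypoxia-induced genes of melanocytes depend on HIF1A.

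Hif1a itself had a mean log2 level of 10.63 in the negative control, 8.65 with Si1 and 8.93 with Si6, a change of -1.98 ± 0.06 (SE) and -1.70 ± 0.06 on the log2 scale (limma, adjusted p = 1.7e-12 and 1.8e-11). Array medians lay between 6.52 and 6.61 on the log2 scale. Melanocyte markers were all above the median gene level. No array stood apart from its group, with correlations of 0.9931 to 0.9957 between arrays of a group. Unless stated otherwise, a value is a log2 intensity and a change is a difference of group means on that scale ± its standard error, with 3 arrays a group. Adjusted p-values are from 1 limma fit to all 15 arrays, adjusted by the Benjamini-Hochberg method over all 22180 genes, two-sided. Higher, lower, rose and fell are used for genes with an adjusted p under 0.05. In RNA from whole cultures, fewer cells expressing a gene and less RNA per cell cannot be told apart.

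The proteasome degrades proteins tagged with ubiquitin. Its barrel-shaped core is built of rings of alpha and beta subunits, and 3 of the beta subunits, Psmb5, Psmb6 and Psmb7, carry the chymotrypsin-like, caspase-like and trypsin-like active sites. A regulatory cap, made of a base with a ring of ATPases and a lid, binds and unfolds the tagged protein, and the lid subunit Psmd14 cuts off the ubiquitin chain. Interferon gamma induces the alternative beta subunits Psmb8, Psmb9 and Psmb10, which replace Psmb5, Psmb6 and Psmb7 in the immunoproteasome, and the activator subunits Psme1 and Psme2. The transcription factor Nfe2l1 raises transcription of core and cap genes together when proteasome activity is low, through antioxidant response elements in their promoters.

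The 150 bases before the annotated start of 5 genes are shown because they cover both kinds of active-site subunit and the cap. Psmb5 and Psmb6 are constitutive subunits, Psmb8 and Psmb9 their inducible replacements, and Psmc4 is the base ATPase with the largest change. They are from RefSeq (GRCm38.p6), written 5′ to 3′ on the strand of the gene. Capitals mark matches on either strand to 4 motifs. TGACNNNGC is the core of the antioxidant response element, and TTCNNNGAA is the interferon gamma activated site. The core of the hypoxia response element, which HIF1A binds, is ACGTG. The last motif is the CCAAT box.
Psmb5, chr14:54617996-54618145, minus strand: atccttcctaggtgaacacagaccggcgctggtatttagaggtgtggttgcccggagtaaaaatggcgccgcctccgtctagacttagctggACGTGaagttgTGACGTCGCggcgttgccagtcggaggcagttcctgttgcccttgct
Psmb8, chr17:34198045-34198194, plus strand: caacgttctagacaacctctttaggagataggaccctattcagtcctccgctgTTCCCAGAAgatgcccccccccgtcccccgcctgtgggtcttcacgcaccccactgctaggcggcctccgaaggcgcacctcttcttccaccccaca
Psmb6, chr11:70525207-70525356, plus strand: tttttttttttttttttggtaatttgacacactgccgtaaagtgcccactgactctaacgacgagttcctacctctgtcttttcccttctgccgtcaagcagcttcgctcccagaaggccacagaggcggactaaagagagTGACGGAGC
Psmb9, chr17:34187331-34187480, minus strand: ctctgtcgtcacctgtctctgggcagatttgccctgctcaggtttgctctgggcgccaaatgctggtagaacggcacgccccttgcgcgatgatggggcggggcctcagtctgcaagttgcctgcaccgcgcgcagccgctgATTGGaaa
Psmc4, chr7:28050093-28050242, minus strand: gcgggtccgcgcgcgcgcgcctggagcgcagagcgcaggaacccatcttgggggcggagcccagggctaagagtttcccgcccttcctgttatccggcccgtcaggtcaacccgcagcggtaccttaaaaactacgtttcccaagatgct

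Psmb5 and Psmb6 held a match to the antioxidant response element core, beginning 47 and 9 bases before the start, and Psmb8 and Psmb9 held none in these windows. Psmb5 also held ACGTG 58 bases before its start. The window of Psmb8 held an interferon gamma activated site 97 bases before its start, a motif that reads the same on both strands. Psmb9 held only a CCAAT box on the opposite strand, 8 bases before its start. Psmc4 held no match to any of the 4 motifs. Windows of 250 bases before to 50 after the start were in the RefSeq table for 37 of the 44 genes, and in these the motifs were about as frequent as in all promoters. The antioxidant response element core was found in 6 of the 37 (16.2%, against 14% of 27025 genes), the CCAAT box in 16 (43.2% against 41.1%), the hypoxia response element core in 8 (21.6% against 21.8%), and the interferon gamma activated site in 2 (5.41% against 9.55%). The antioxidant response element core was in 2 of the 19 genes with a window that were higher with both siRNAs (10.5%). It was in 4 of the other 18 (22.2%), so the printed promoters do not stand for the whole group. A match is a string of letters, not a measured binding site.

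Most proteasome genes were expressed well above the typical gene. Mean log2 levels over the 15 arrays ran from 5.32 for Psma5 to 11.99 for Psmb5, and 38 of the 44 genes lay above the median of all genes (6.90). The 6 below it were Psma5, Psma8 (the testis form of an alpha subunit), Psmb11 (the beta subunit of the thymus), Psmb8, Psmb9 and Psmc3ip. Probe sets differ in how brightly they bind, so these levels rank signals and not molecules. Proteasome genes also have processed pseudogenes, and probes that match both cannot tell them apart.

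**Figure D1:**
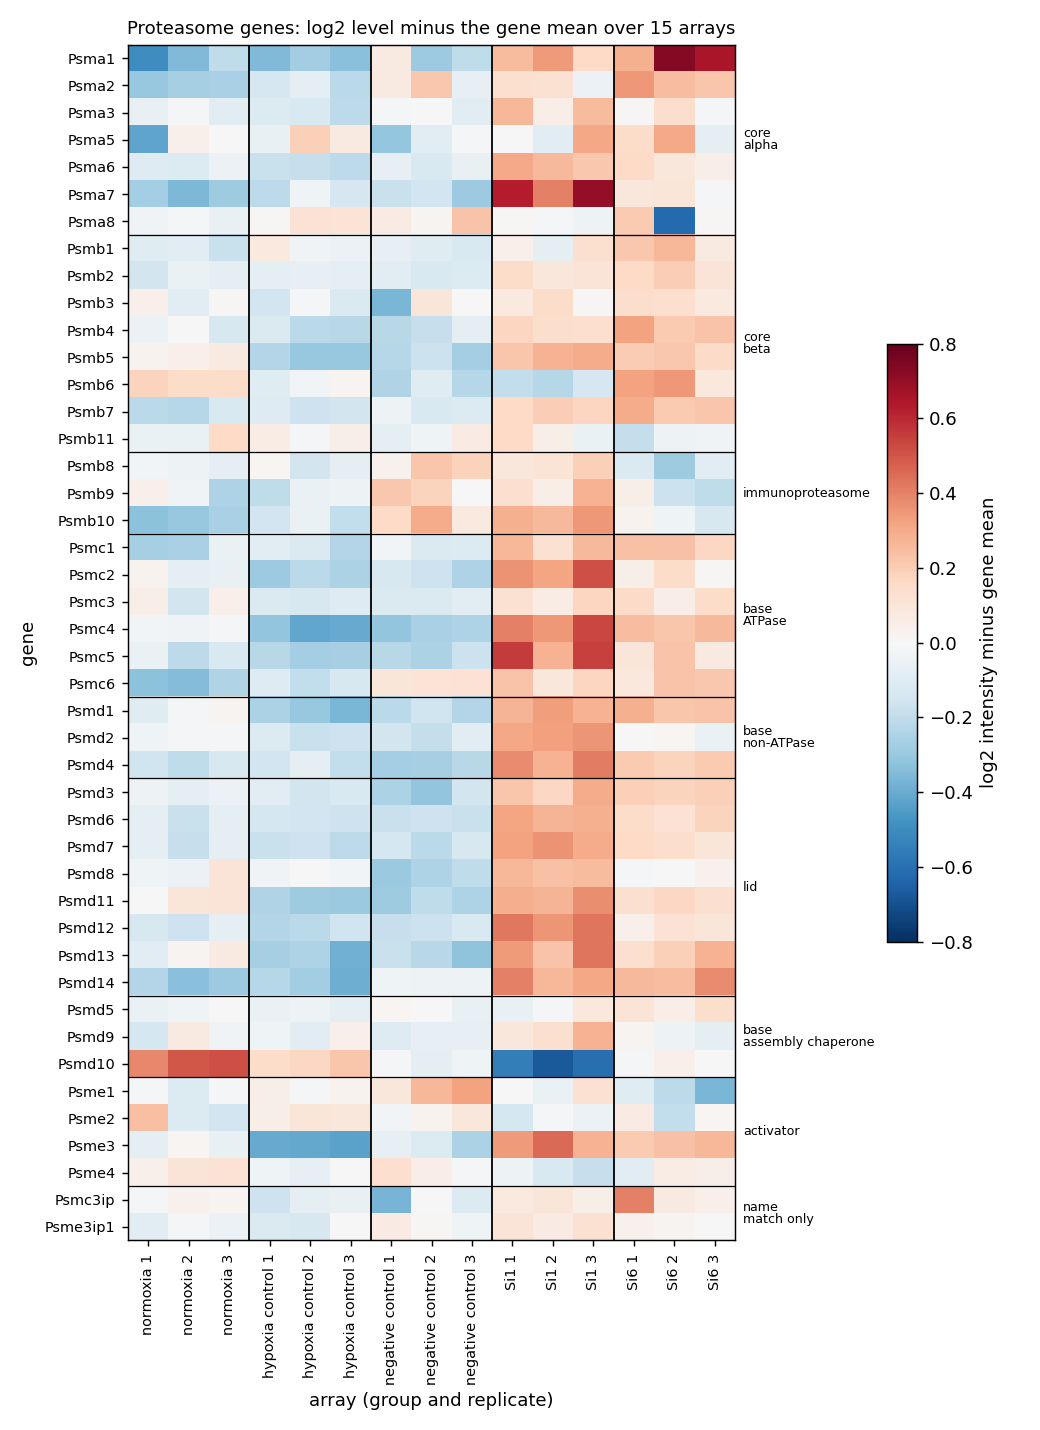
Log2 level of each of the 44 proteasome genes (rows, by role) in each of the 15 arrays (columns, by group), drawn as the difference from the gene's mean over all arrays on a colour scale from -0.8 to 0.8. The Si1 and Si6 columns are above the mean for nearly all base and lid genes, whereas Psmd10 is lowest with Si1 and Psme1 lowest with Si6.

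The hypoxia control was first set against normoxia. Between the hypoxia control and normoxia, 0 of the 44 genes were higher and 8 were lower, or 18.2% of them, beside 9.87% of all genes higher and 11.2% lower. The median change of the 44 was -0.04, against 0 to 2 decimals for all genes, and it was -0.06 without normoxia array 2. At an unadjusted p under 0.05 in limma, 3 were higher and 12 lower, but all genes were not counted at an unadjusted p. When the arrays were quantile-normalized again, 3 of the genes were higher and 9 lower after adjustment. The shares of all genes above are for the adjusted test on the deposited values, so they are no background for these 2 settings. The 8 lower genes were the core subunit Psmb5, the ATPases Psmc4 and Psmc2, the base scaffold Psmd1, the lid subunits Psmd11 and Psmd13, the assembly chaperone Psmd10 and the nuclear activator Psme3. In each of these 8 the normoxia and hypoxia control arrays did not overlap. These genes were picked by the test on the same arrays, so this adds no separate result. Over all 44 genes, the 3 hypoxia control arrays were all above normoxia in 6 and all below it in 16. Among all 22180 genes they were all above it in 3628 and all below it in 4134.

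Psmb5, which carries the chymotrypsin-like site, measured 12.02, 12.03 and 12.07 in normoxia, 11.76, 11.69 and 11.69 in the hypoxia control, 11.76, 11.82 and 11.72 in the negative control, 12.22, 12.27 and 12.29 with Si1, and 12.19, 12.21 and 12.15 with Si6. Every hypoxia control array was below every normoxia array, and every siRNA array was above all others. The change in hypoxia was -0.33 ± 0.05 (adjusted p = 1.2e-04). For Psmc4, an ATPase of the base ring, the values were 10.72, 10.71 and 10.73 in normoxia, 10.42, 10.33 and 10.34 in the hypoxia control, 10.42, 10.48 and 10.49 in the negative control, 11.14, 11.09 and 11.27 with Si1, and 10.99, 10.96 and 10.9998 with Si6. The order of its groups was the same, the change in hypoxia being -0.36 ± 0.05 (adjusted p = 1.7e-04). Psme3, a nuclear activator that opens the core without ubiquitin, measured 8.996, 9.08 and 9.01 in normoxia, 8.66, 8.65 and 8.63 in the hypoxia control, 8.9998, 8.96 and 8.82 in the negative control, 9.40, 9.52 and 9.34 with Si1, and 9.28, 9.30 and 9.33 with Si6. It changed by -0.38 ± 0.06 (adjusted p = 2.1e-04) in the hypoxia control, but the negative control arrays lay near those of normoxia.

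Psmd11, a lid subunit, read 10.04, 10.14 and 10.14 in normoxia, 9.80, 9.76 and 9.74 in the hypoxia control, 9.75, 9.84 and 9.79 in the negative control, 10.33, 10.31 and 10.41 with Si1, and 10.17, 10.21 and 10.17 with Si6, so that both sets of hypoxic control arrays lay below normoxia. Its change in the hypoxia control was -0.34 ± 0.05 (adjusted p = 1.4e-04). The scaffold Psmd1 read 10.56, 10.64 and 10.68 in normoxia, 10.40, 10.35 and 10.29 in the hypoxia control, 10.44, 10.50 and 10.42 in the negative control, 10.93, 10.99 and 10.94 with Si1, and 10.94, 10.88 and 10.88 with Si6, with the hypoxia control lowest and the siRNA arrays highest. It fell in the hypoxia control by 0.28 ± 0.05 (adjusted p = 9.3e-04). Psmd13 changed by -0.30 ± 0.07 (adjusted p = 0.004) and Psmd10 by -0.29 ± 0.05 (adjusted p = 7.6e-04). The call for Psmc2 (-0.22 ± 0.06, adjusted p = 0.019) was lost without normoxia array 1 (adjusted p = 0.075), hypoxia control array 1 (adjusted p = 0.073) or hypoxia control array 3 (adjusted p = 0.051). Averaging its 2 probe sets gave -0.10 (adjusted p = 0.168).

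The negative control, also hypoxic, did not match the hypoxia control in every proteasome gene. Against the hypoxia control, 5 of the 44 genes were higher and 2 lower, where 7.8% and 7.51% of all genes were higher and lower. The higher genes were Psme3 (0.27 ± 0.06), Psmb10 (0.31 ± 0.06), the lid deubiquitinase Psmd14 (0.26 ± 0.06), the ATPase Psmc6 (0.25 ± 0.06) and Psmb8 (0.22 ± 0.07). The lower genes were Psmd8 (-0.23 ± 0.05), a lid subunit, and Psmd10 (-0.22 ± 0.05). The adjusted p of Psmb8, 0.043, ran from 0.021 to 0.179 over 25 other settings and missed the threshold in 13.

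Against normoxia, 6 genes were higher in the negative control and 9 lower, beside 14.6% and 15.7% of all genes. The higher genes included Psmc6, whose arrays read 10.38, 10.36 and 10.46 in normoxia, 10.61, 10.51 and 10.58 in the hypoxia control, and 10.81, 10.81 and 10.82 in the negative control. It was lowest in normoxia, with a change of 0.41 ± 0.06 (adjusted p = 3.1e-05). Psma2, an alpha subunit, read 8.63, 8.67 and 8.68 in normoxia, 8.80, 8.86 and 8.72 in the hypoxia control, and 9.01, 9.15 and 8.87 in the negative control. It was again lowest in normoxia and changed by 0.35 ± 0.07 (adjusted p = 0.001). The largest negative change was that of Psmd10, -0.51 ± 0.05 (adjusted p = 1.6e-06), and in the core that of Psmb6, -0.35 ± 0.07 (adjusted p = 9.2e-04). Psmb5, Psmc4, Psmd1, Psmd11, Psmd13 and Psmd10 were lower than in normoxia in both hypoxic groups without an siRNA against Hif1a. Those groups share the normoxia arrays. The calls of Psmd1 and Psmd13 in the negative control were not stable, with an adjusted p of up to 0.081 for Psmd1 (without normoxia array 3) and 0.055 for Psmd13 (without negative control array 3).

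Cells given either siRNA had more RNA of most core, base and lid genes. With Si1, 26 of the 44 genes were higher than in the negative control and 3 lower (59.1% and 6.82%, where 20.2% of all genes were higher and 14.8% lower). With Si6, 27 were higher and 3 lower (61.4% and 6.82%, where 17% and 11.9% of all genes were). The median change of the 44 genes was 0.26 with Si1 and 0.26 with Si6, and that of all genes was -0.01 with each. Changes ran from -0.57 to 0.79 with Si1 and from -0.45 to 0.70 with Si6. Both comparisons use the same 3 negative control arrays, so they are not independent of each other.

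**Figure D2:**
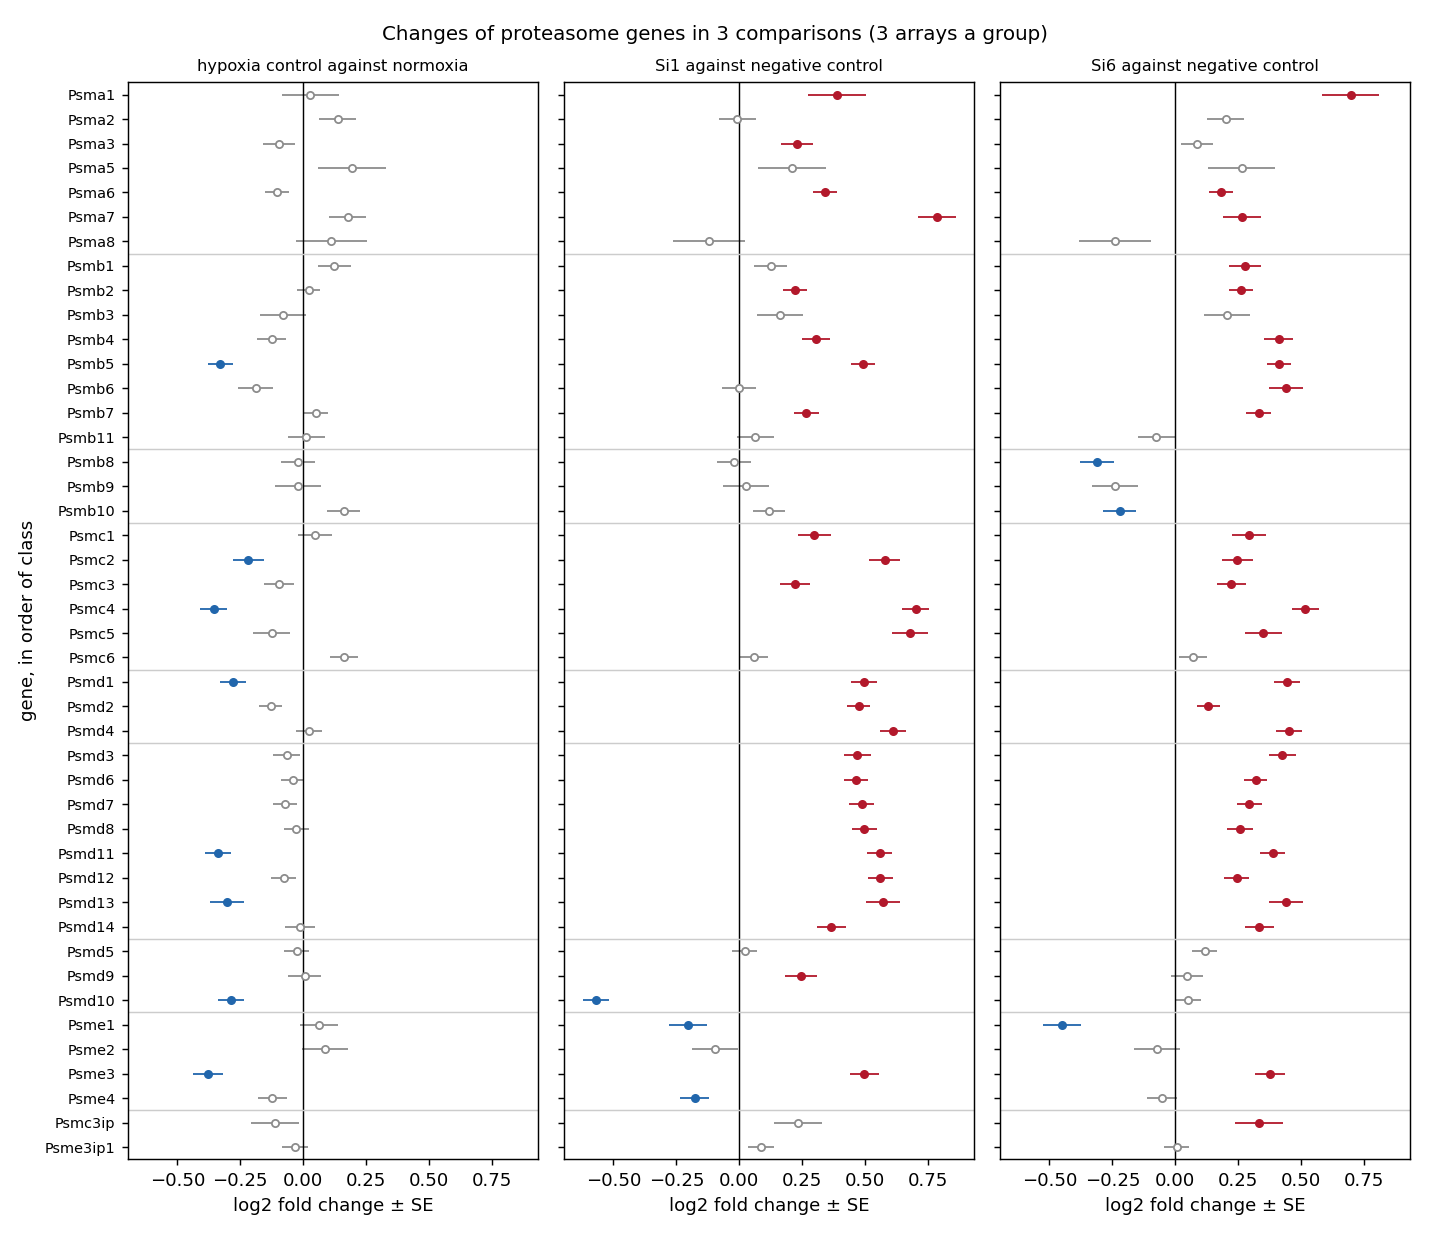
Change of each proteasome gene on the log2 scale (points) ± its standard error (bars) for the hypoxia control against normoxia, Si1 against the negative control and Si6 against the negative control, by role. Filled red points are higher and filled blue points lower at an adjusted p under 0.05 and open grey points did not pass; base and lid genes lie to the right of 0 with both siRNAs.

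Nearly all cap genes found by the rule rose. Of these 17 base and lid genes, 16 were higher with Si1 and 16 with Si6. That was 94.1% each, beside 20.2% and 17% of all genes. The medians were 0.50 and 0.32, and the remaining gene was Psmc6 in both. After each gene was centred on its mean, the median of these 17 genes lay between 0.27 and 0.32 in the Si1 arrays and between 0.15 and 0.18 in the Si6 arrays. In all 9 other arrays it was below 0, from -0.21 to -0.06. The groups given an siRNA against Hif1a did not overlap with the others in this median. No such median was taken for sets of unrelated genes, so it has no background. Gene by gene, all Si1 arrays were above all negative control arrays in 16 of the 17, and in 5239 of all 22180 genes. For Si6 these numbers were 16 and 4832. The 17 include Psmc2, whose 2 probe sets disagreed, as given below.

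Among the 6 ATPases, Psmc4 had the largest change, 0.70 ± 0.05 (adjusted p = 5.0e-08) with Si1 and 0.52 ± 0.05 (adjusted p = 2.6e-06) with Si6, from the array values given above. Psmc5 changed by 0.68 ± 0.07 and 0.35 ± 0.07, Psmc1 by 0.30 ± 0.07 and 0.29 ± 0.07, and Psmc3 by 0.22 ± 0.06 and 0.22 ± 0.06, all past the test. The call of Psmc3 with Si6 was lost when the arrays were quantile-normalized again (0.16, adjusted p = 0.062). Psmc6, which had been higher in the negative control than in the hypoxia control, read 10.81, 10.81 and 10.82 in the negative control, 10.94, 10.80 and 10.88 with Si1, and 10.79, 10.93 and 10.92 with Si6. Its siRNA arrays overlapped those of the negative control, and the changes were 0.06 ± 0.06 (adjusted p = 0.5) and 0.07 ± 0.06 (adjusted p = 0.416). Psmc2 was measured by 2 probe sets that disagreed. The brighter one read 8.26, 8.16 and 8.17 in normoxia, 7.94, 8.02 and 7.98 in the hypoxia control, 8.10, 8.07 and 7.99 in the negative control, 8.59, 8.55 and 8.75 with Si1, and 8.28, 8.38 and 8.24 with Si6, with the Si1 arrays above all others. It changed by 0.58 ± 0.06 (adjusted p = 1.7e-06) and 0.25 ± 0.06 (adjusted p = 0.006). The dimmer one, with a mean level of 5.63, changed by -0.20 with Si1 (adjusted p = 0.021) and -0.02 with Si6 (adjusted p = 0.863), so the direction of Psmc2 is uncertain.

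The other subunits of the base were Psmd1 and Psmd2, its scaffold proteins, and Psmd4, a ubiquitin receptor. Psmd4 measured 8.74, 8.69 and 8.76 in normoxia, 8.74, 8.82 and 8.70 in the hypoxia control, 8.62, 8.63 and 8.67 in the negative control, 9.27, 9.17 and 9.30 with Si1, and 9.10, 9.07 and 9.10 with Si6. All siRNA arrays were above all others, with Si1 above Si6. The change was 0.61 ± 0.05 (adjusted p = 1.4e-07) with Si1 and 0.45 ± 0.05 (adjusted p = 6.2e-06) with Si6. Psmd1 changed by 0.50 ± 0.05 and 0.45 ± 0.05. Psmd2 read 10.78, 10.73 and 10.84 in the negative control, 11.24, 11.26 and 11.28 with Si1, and 10.92, 10.94 and 10.88 with Si6, with the Si6 arrays between the others. It rose with Si1 (0.47 ± 0.05, adjusted p = 6.9e-07). Its change with Si6 was 0.13 ± 0.05 (adjusted p = 0.046), which missed the threshold in 15 of 25 other settings (adjusted p from 0.004 to 0.168).

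All 8 lid genes found by the rule were higher with each siRNA (100%, beside 20.2% of all genes with Si1 and 17% with Si6). Their medians were 0.49 for Si1 and 0.33 for Si6. Sem1, a small lid protein whose symbol is outside the rule, did not share this rise. Its means were 9.11 in the negative control, 9.08 with Si1 and 9.13 with Si6. Psmd13 measured 8.002, 8.10 and 8.16 in normoxia, 7.82, 7.84 and 7.70 in the hypoxia control, 7.91, 7.86 and 7.76 in the negative control, 8.42, 8.31 and 8.51 with Si1, and 8.22, 8.28 and 8.36 with Si6, with each siRNA array above each normoxia array. It changed by 0.57 ± 0.07 (adjusted p = 5.2e-06) and 0.44 ± 0.07 (adjusted p = 1.1e-04). Psmd12 read 9.5002, 9.51 and 9.56 in the negative control, 10.11, 10.04 and 10.11 with Si1, and 9.72, 9.80 and 9.78 with Si6. These groups did not overlap, with Si6 in the middle, and the changes were 0.56 ± 0.05 and 0.24 ± 0.05. Psmd14, the deubiquitinase of the lid, read 9.04, 8.94 and 8.98 in normoxia, 9.04, 8.996 and 8.88 in the hypoxia control, 9.24, 9.23 and 9.23 in the negative control, 9.68, 9.54 and 9.58 with Si1, and 9.53, 9.52 and 9.65 with Si6. Its siRNA arrays were above all others, with changes of 0.37 ± 0.06 (adjusted p = 1.1e-04) and 0.33 ± 0.06 (adjusted p = 3.7e-04). The other lid genes were Psmd3, Psmd6, Psmd7, Psmd8 and Psmd11, with changes of 0.46 to 0.56 for Si1 and 0.26 to 0.43 for Si6. Psmd8 had a mean of 11.18 with Si6, above the negative control (10.92) but near normoxia (11.18) and the hypoxia control (11.15).

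A smaller share of the core genes than of the base and lid genes passed the test. Among the 13 constitutive core genes, leaving out the testis and thymus forms, 8 were higher with Si1 and 9 with Si6. That was 61.5% and 69.2%, beside 20.2% and 17% of all genes. With either siRNA 0 were lower, beside 14.8% and 11.9% of all genes. Of the 7 alpha genes, 4 were higher with Si1 and 3 with Si6 (57.1% and 42.9%). Psma7, an alpha subunit reported in human cells to bind HIF1A protein, measured 8.90, 8.81 and 8.89 in normoxia, 8.96, 9.13 and 9.04 in the hypoxia control, 8.99, 9.01 and 8.88 in the negative control, 9.80, 9.57 and 9.88 with Si1, and 9.26, 9.27 and 9.15 with Si6. Its Si1 arrays were above all others and its Si6 arrays above all but those. It changed by 0.79 ± 0.08 (adjusted p = 5.3e-07) with Si1 and by 0.26 ± 0.08 (adjusted p = 0.014) with Si6, and the latter call was lost without negative control array 3 (adjusted p = 0.064) or Si6 array 2 (adjusted p = 0.053). Psma1, another alpha subunit, read 9.36, 9.501 and 9.65 in normoxia, 9.501, 9.58 and 9.52 in the hypoxia control, 9.93, 9.56 and 9.65 in the negative control, 10.11, 10.19 and 10.01 with Si1, and 10.14, 10.59 and 10.51 with Si6, with wider scatter within groups. It changed by 0.39 ± 0.11 (adjusted p = 0.013) and 0.70 ± 0.11 (adjusted p = 1.9e-04), and the call for Si1 was lost without negative control array 2 (adjusted p = 0.070) or Si1 array 2 (adjusted p = 0.056).

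Psma6 was higher with both siRNAs (0.34 ± 0.05 and 0.18 ± 0.05), and Psma3 with Si1 (0.23 ± 0.06) but not past the test with Si6 (0.09 ± 0.06, adjusted p = 0.373). Psma2, with changes of -0.01 ± 0.07 (adjusted p = 0.958) and 0.20 ± 0.07 (adjusted p = 0.050), Psma5, with 0.21 ± 0.14 (adjusted p = 0.272) and 0.26 ± 0.14 (adjusted p = 0.177), and the testis form Psma8, with -0.12 ± 0.14 (adjusted p = 0.587) and -0.24 ± 0.14 (adjusted p = 0.251), did not pass with either. The other probe set of Psma5, similarly dim with a mean level of 5.22, did pass with Si1 (0.19, adjusted p = 0.039). With Si6 it changed by -0.02 (adjusted p = 0.896), so the result for Psma5 depends on the probe set.

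Of the 8 beta genes, 4 were higher with Si1 and 6 with Si6 (50% and 75%, beside 20.2% and 17% of all genes). The arrays of Psmb5 given above put both siRNA groups above all others, with changes of 0.49 ± 0.05 (adjusted p = 6.5e-07) and 0.41 ± 0.05 (adjusted p = 7.1e-06). Psmb7, the trypsin-like subunit, measured 9.22, 9.20 and 9.31 in normoxia, 9.33, 9.27 and 9.29 in the hypoxia control, 9.39, 9.31 and 9.32 in the negative control, 9.59, 9.63 and 9.61 with Si1, and 9.73, 9.64 and 9.65 with Si6. Its siRNA arrays were above all the rest and changed by 0.27 ± 0.05 (adjusted p = 4.2e-04) and 0.33 ± 0.05 (adjusted p = 8.1e-05). Psmb6, the caspase-like subunit, measured 8.52, 8.48 and 8.48 in normoxia, 8.24, 8.31 and 8.36 in the hypoxia control, 8.10, 8.24 and 8.10 in the negative control, 8.14, 8.11 and 8.20 with Si1, and 8.66, 8.68 and 8.42 with Si6. It was high in normoxia and with Si6, and low in the 2 hypoxic controls and with Si1. The change was 0.00 ± 0.07 (adjusted p = 0.996) with Si1 and 0.44 ± 0.07 (adjusted p = 1.2e-04) with Si6. The noncatalytic subunits Psmb2 (0.22 ± 0.05 and 0.26 ± 0.05) and Psmb4 (0.31 ± 0.06 and 0.41 ± 0.06) were higher with each siRNA. Psmb1 passed with Si6 but not with Si1 (0.12 ± 0.06, adjusted p = 0.162, with Si1 and 0.28 ± 0.06, adjusted p = 0.004, with Si6), and the difference between the siRNAs did not pass (adjusted p = 0.099). Psmb3 (0.16 ± 0.09 and 0.21 ± 0.09) and Psmb11 (0.06 ± 0.07 and -0.07 ± 0.07) passed with neither.

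None of the 3 immunoproteasome genes was called higher with either siRNA, where 20.2% of all genes were with Si1 and 17% with Si6. With so few genes, 0 called higher does not set them apart from all genes. With Si1, 0 of the 3 passed the limma test and 0 had an unadjusted p under 0.05. With Si6, Psmb8 and Psmb10 were lower (66.7%, beside 11.9% of all genes), and all 3 had an unadjusted p under 0.05. Psmb8, the replacement for Psmb5, measured 6.27, 6.26 and 6.21 in normoxia, 6.31, 6.15 and 6.22 in the hypoxia control, 6.33, 6.52 and 6.48 in the negative control, 6.38, 6.40 and 6.48 with Si1, and 6.18, 6.01 and 6.21 with Si6. Its Si6 arrays were below all negative control and Si1 arrays. The change was -0.02 ± 0.07 (adjusted p = 0.875) with Si1 and -0.31 ± 0.07 (adjusted p = 0.002) with Si6. Psmb10, the replacement for Psmb7, measured 8.78, 8.80 and 8.84 in normoxia, 8.95, 9.05 and 8.91 in the hypoxia control, 9.26, 9.40 and 9.18 in the negative control, 9.39, 9.36 and 9.45 with Si1, and 9.13, 9.07 and 8.98 with Si6. Normoxia was lowest and the negative control and Si1 highest, with changes of 0.12 ± 0.06 (adjusted p = 0.185) for Si1 and -0.22 ± 0.06 (adjusted p = 0.016) for Si6. The Si6 call for Psmb10 was lost without negative control array 2 (adjusted p = 0.092) or Si6 array 3 (adjusted p = 0.078), with median centring (adjusted p = 0.079), and when only the compared groups were fitted (adjusted p = 0.064).

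Psmb9, the replacement for Psmb6, measured 6.599, 6.53 and 6.31 in normoxia, 6.35, 6.51 and 6.52 in the hypoxia control, 6.77, 6.74 and 6.56 in the negative control, 6.70, 6.62 and 6.84 with Si1, and 6.61, 6.39 and 6.36 with Si6. The Si6 arrays were below all Si1 arrays but overlapped the negative control. Neither change from the negative control passed (0.03 ± 0.09, adjusted p = 0.876, for Si1 and -0.24 ± 0.09, adjusted p = 0.063, for Si6). In the hypoxia control, Psmb8 changed by -0.02 ± 0.07 (adjusted p = 0.888), Psmb9 by -0.02 ± 0.09 (adjusted p = 0.921) and Psmb10 by 0.16 ± 0.06 (adjusted p = 0.097). With Si6 the constitutive subunits Psmb5, Psmb6 and Psmb7 rose by 0.41, 0.44 and 0.33 from the negative control. The inducible Psmb8, Psmb9 and Psmb10 had changes of -0.31, -0.24 and -0.22. In the negative control these 3 had themselves changed by 0.22, 0.23 and 0.31 from the hypoxia control. Their Si6 means of 6.13, 6.45 and 9.06 lay near the hypoxia control means of 6.23, 6.46 and 8.97. For Psmb5, Psmb6 and Psmb7 the Si6 means were 12.18, 8.59 and 9.67, beside 11.71, 8.30 and 9.29. Si6 was not tested against the hypoxia control.

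**Figure D3:**
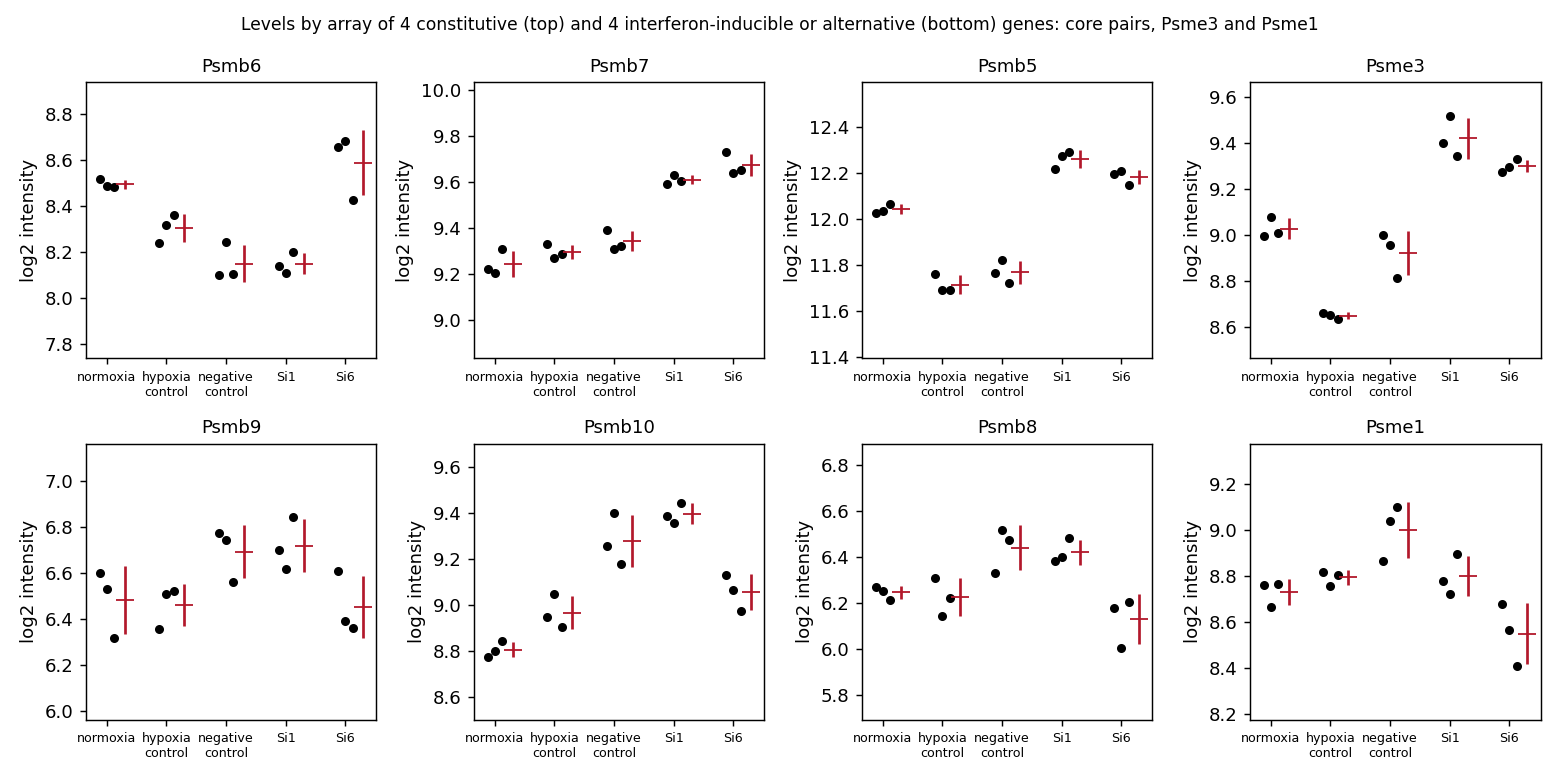
Log2 level in each array (points), with the group mean ± SD in red (n = 3), for the constitutive genes Psmb6, Psmb7, Psmb5 and Psme3 (top) and for Psmb9, Psmb10, Psmb8 and Psme1 (bottom). With Si6 the top genes lie above the negative control and Psmb10, Psmb8 and Psme1 below it, while Psmb6 with Si1 overlaps the negative control.

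The 4 activators did not move together. Psme1 and Psme2 form the interferon-inducible activator ring. Psme1 measured 8.76, 8.67 and 8.77 in normoxia, 8.82, 8.76 and 8.81 in the hypoxia control, 8.87, 9.04 and 9.10 in the negative control, 8.78, 8.72 and 8.90 with Si1, and 8.68, 8.57 and 8.41 with Si6. It was highest in the negative control and lowest with Si6, a change of -0.45 ± 0.08 (adjusted p = 2.4e-04). With Si1 its arrays overlapped the negative control and its change of -0.20 ± 0.08 (adjusted p = 0.049) missed the threshold in 16 of 25 other settings (adjusted p from 0.014 to 0.190). Psme2 measured 8.55, 8.21 and 8.16 in normoxia, 8.36, 8.41 and 8.41 in the hypoxia control, 8.29, 8.35 and 8.41 in the negative control, 8.18, 8.31 and 8.27 with Si1, and 8.38, 8.12 and 8.33 with Si6, with the Si1 and Si6 arrays overlapping the negative control. It changed by -0.10 ± 0.09 (adjusted p = 0.476) and -0.07 ± 0.09 (adjusted p = 0.636). Psme3, whose array values are given above, rose by 0.50 ± 0.06 (adjusted p = 5.1e-06) and 0.38 ± 0.06 (adjusted p = 1.3e-04). Psme4, an activator that works on histones in the testis, changed by -0.18 ± 0.06 (adjusted p = 0.028) with Si1, a call lost in 6 settings (adjusted p up to 0.124, without negative control array 1), and by -0.05 ± 0.06 (adjusted p = 0.591) with Si6.

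Psmd10 (gankyrin), a chaperone of base assembly that also binds the retinoblastoma protein, fell with Si1 while the base subunits rose. It measured 10.75, 10.87 and 10.89 in normoxia, 10.52, 10.54 and 10.59 in the hypoxia control, 10.36, 10.30 and 10.34 in the negative control, 9.82, 9.70 and 9.77 with Si1, and 10.36, 10.41 and 10.37 with Si6. The level was highest in normoxia, lower in the hypoxia control, lower again in the negative control and with Si6, which met at 10.36, and lowest with Si1. The change was -0.57 ± 0.05 (adjusted p = 3.1e-07) with Si1 and 0.05 ± 0.05 (adjusted p = 0.548) with Si6. The other base chaperones were Psmd9 (0.25 ± 0.06, adjusted p = 0.007, with Si1 and 0.05 ± 0.06, adjusted p = 0.671, with Si6) and Psmd5 (0.02 ± 0.05, adjusted p = 0.805, and 0.12 ± 0.05, adjusted p = 0.106). Of the name matches, Psmc3ip read 6.40, 6.78 and 6.67 in the negative control, 6.86, 6.87 and 6.82 with Si1, and 7.18, 6.85 and 6.82 with Si6. Both siRNA groups were above the negative control, with changes of 0.24 ± 0.10 (adjusted p = 0.070) and 0.33 ± 0.10 (adjusted p = 0.014). The call for Si6 was lost without negative control array 1 (adjusted p = 0.083), without Si6 array 1 (adjusted p = 0.080) and when only the compared groups were fitted (adjusted p = 0.085). Psme3ip1 changed by 0.09 ± 0.05 and 0.01 ± 0.05 and did not pass.

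The mean of both siRNAs was also set against the negative control. Of the 44 genes, 28 were higher and 3 lower, beside 19.7% and 13.8% of all genes, with a median of 0.27. Psmc4 had the largest rise (0.61 ± 0.05, adjusted p = 6.5e-08) and Psme1 the largest fall (-0.33 ± 0.07, adjusted p = 9.0e-04). Of the 8 genes that were lower in the hypoxia control than in normoxia, 7 were higher with Si1 and 7 with Si6 than in the negative control (87.5% each), and the exception was Psmd10. Among all 44 genes the shares were 59.1% and 61.4%. The 7 include Psmc2, whose direction is uncertain. Of the 2474 genes lower in the hypoxia control among all genes, 54.9% were higher with Si1 and 59% with Si6. Across the 44 genes, the change in hypoxia and the mean change with siRNA had a Pearson r of -0.37 and a Spearman rho of -0.38. Across all genes these were -0.52 and -0.34, and genes are not independent replicates.

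The siRNAs differed from each other in many of these genes. Compared directly, 17 of the 44 were higher with Si1 than with Si6 and 3 lower, beside 14.5% and 13.4% of all genes, with a median difference of 0.10. The count of 20 fell to 13 without Si1 array 3, to 13 without Si6 array 2, and to 11 when only these 2 groups were fitted. Psma7 was 0.52 ± 0.08 (adjusted p = 6.1e-05) higher with Si1 and Psmd2 0.34 ± 0.05 (adjusted p = 3.3e-05). Psmd12 (0.32 ± 0.05), Psmc5 (0.33 ± 0.07) and Psmd8 (0.24 ± 0.05) were also higher with Si1. The differences of Psmd10 (-0.62 ± 0.05, adjusted p = 2.4e-07) and Psmb6 (-0.44 ± 0.07, adjusted p = 1.2e-04) went the other way. All 3 immunoproteasome genes were higher with Si1 than with Si6, by 0.29 for Psmb8, 0.27 for Psmb9 and 0.34 for Psmb10, as was Psme1 by 0.25. The call for Psmb9 was lost in 7 settings (adjusted p up to 0.168).

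Genes of antigen processing, which use the peptides that the immunoproteasome makes, were counted beside it. Of 10 analysed here, 5 were higher and 1 lower with Si1 (50% and 10%, beside 20.2% and 14.8% of all genes). With Si6, 2 were higher and 3 lower (20% and 30%, beside 17% and 11.9%), so the share higher was near that of all genes. In the hypoxia control 2 were higher and 4 lower (20% and 40%, beside 9.87% and 11.2%). H2-K1, a class I heavy chain whose probes may also read related class I genes, changed by 0.88 ± 0.08 in the hypoxia control, -0.48 ± 0.08 with Si1 and -1.01 ± 0.08 with Si6. The peptide transporter Tap1, a neighbour of Psmb9 in the genome, rose with Si1 (0.58 ± 0.07) and had a change of -0.03 ± 0.07 (adjusted p = 0.780) with Si6. Irf1, a transcription factor of the interferon response, rose in the hypoxia control (0.44 ± 0.06) and fell with Si6 (-0.30 ± 0.06). The peptide-trimming enzyme Erap1 rose with Si1 (0.38 ± 0.06) and Si6 (0.57 ± 0.06).

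Leukocytes carry immunoproteasomes, so leukocyte markers are given beside these genes. Their summed level (log2 of the sum of linear intensities) over 7 of 8 measured markers ran from 9.23 to 9.30 in the negative control, 10.08 to 10.22 with Si1 and 9.33 to 9.39 with Si6. In normoxia it was 9.02 to 9.20 and in the hypoxia control 9.24 to 9.39. Ptprc, which marks all leukocytes, had group means from 4.43 to 4.58. Of the 7, 6 lay below the median of all genes, and 3 were higher with Si1 (42.9%, beside 20.2% of all genes). These were Cd68, a lysosomal protein not restricted to leukocytes (1.33 ± 0.08, from a mean of 8.32 to 9.65), Cd14 (0.41 ± 0.11) and Itgam (0.22 ± 0.07). The summed level of the 8 melanocyte markers was 15.30 to 15.32 in normoxia, 15.12 to 15.16 in the hypoxia control, 14.68 to 14.79 in the negative control, 14.51 to 14.61 with Si1 and 14.93 to 14.998 with Si6. The summed level of the 6 fibroblast markers was 9.99 to 10.10 in normoxia, 9.37 to 9.48 in the hypoxia control, 9.55 to 9.78 in the negative control, 9.17 to 9.28 with Si1 and 9.37 to 9.53 with Si6. All 4 measured keratinocyte markers and all 4 endothelial markers lay below the median of all genes. The part of these markers in the results was not tested.

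Of the 6 chaperones of core assembly and nuclear import, 2 were higher with Si1 and 3 with Si6 (33.3% and 50%, beside 20.2% and 17% of all genes). With either siRNA 0 were lower (also 0 at an unadjusted p under 0.05 in limma). In the hypoxia control 1 was higher (16.7%, beside 9.87%). Psmg2, which helps to build the alpha ring, changed by 0.48 ± 0.08 (adjusted p = 2.3e-04) and 0.57 ± 0.08 (adjusted p = 6.4e-05). Pomp, which helps beta subunits to join, changed by 0.53 ± 0.07 and 0.24 ± 0.07. Psmg1, the partner of Psmg2, changed by 0.11 ± 0.08 (adjusted p = 0.335) with Si1 and 0.44 ± 0.08 (adjusted p = 3.6e-04) with Si6. Psmg4 was the chaperone that rose in the hypoxia control (0.28 ± 0.05).

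Of 14 analysed genes for proteins that bind the proteasome, 9 were higher and 3 lower with Si1 (64.3% and 21.4%, beside 20.2% and 14.8% of all genes). With Si6, 10 were higher and 2 lower (71.4% and 14.3%, beside 17% and 11.9%). In the hypoxia control 2 were higher and 3 lower (14.3% and 21.4%, beside 9.87% and 11.2%). Zfand2a, a stress-induced protein that binds the cap, rose by 0.93 ± 0.06 and 0.54 ± 0.06. Uchl5, a deubiquitinase of the cap, was lower in the hypoxia control (-0.45 ± 0.08) and rose with Si1 (0.79 ± 0.08) and Si6 (0.65 ± 0.08). Usp14, another deubiquitinase of the cap, was higher in the hypoxia control (0.24 ± 0.06) and with both siRNAs (0.46 ± 0.06 and 0.22 ± 0.06). Sem1, a small lid protein, rose in the hypoxia control (0.48 ± 0.07).

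Of 11 analysed genes of the Nfe2l1 route, 4 were higher and 4 lower with Si1 (36.4% each, beside 20.2% and 14.8% of all genes). With Si6, 3 were higher and 2 lower (27.3% and 18.2%, beside 17% and 11.9%). In the hypoxia control 3 were higher and 1 lower (27.3% and 9.09%, beside 9.87% and 11.2%). Nfe2l1 itself rose by 0.38 ± 0.05 (adjusted p = 8.9e-06) with Si1 and 0.29 ± 0.05 (adjusted p = 1.9e-04) with Si6. Nfe2l2, a related factor that binds the same elements, fell with Si1 (-0.82 ± 0.05, adjusted p = 6.1e-09) and had a change of -0.07 ± 0.05 (adjusted p = 0.406) with Si6. Of the small Maf proteins that pair with both factors, Maff rose in the hypoxia control (0.89 ± 0.08) and fell with Si1 (-0.22 ± 0.08) and Si6 (-0.69 ± 0.08). Mafk rose with Si1 (0.47 ± 0.07) and changed by 0.08 ± 0.07 (adjusted p = 0.452) with Si6. Of the genes for ubiquitin, Nedd8 and their activating enzymes 2 of 8 were analysed here, Uba6 and Nedd8, and both rose in the hypoxia control (0.36 ± 0.06 and 0.26 ± 0.06). With Si1, Uba6 was lower (-0.19 ± 0.06) and Nedd8 higher (0.33 ± 0.06). Nfe2l1 acts after translation, through cleavage and release from the endoplasmic reticulum, which arrays do not measure.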

How the data were processed

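RNA of 15 samples was measured on one-colour Affymetrix arrays. The authors deposited 1 table of log2 values for 41345 probe sets. The submitters' processing notes list RMA and Partek, with no version or order given. RMA quantile-normalizes arrays, so a shift common to every gene is removed, and changes of dim signals are compressed. The table has no detection calls and names no genome build.

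Groups came from the sample labels. Of the probe sets, 23521 had 1 symbol in the platform annotation, 1814 several and 16010 none. Those with 1 symbol gave 22180 genes, each taken from its probe set with the highest mean (1082 genes had more than 1). RefSeq (GRCm38.p6) held the Entrez identifier of 23328 of these probe sets and changed 0 symbols. Psma5 and Psmc2 had 2 probe sets each, and 4 probe sets with several symbols were left out.

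A limma model (version 3.58.1, R 4.3.3) with a mean for each of the 5 groups, eBayes moderation and no covariates was fitted to the deposited log2 values of all arrays, and 7 comparisons were taken from it. The median standard error of a change between 2 groups was 0.076 over all genes and 0.059 over the 44 genes, and the number of arrays limits the precision. Steps were tested on simulated data. Motifs were searched as letters on both strands.

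The members, roles and lists were chosen with earlier results of these data known. Array values are given for Psmb5 to Psmb10, Psme1, Psme2 and, within each role, the called gene with the largest change in each comparison. Of other lists, up to 4 genes are named, those with the largest called changes in the hypoxia control against normoxia or with either siRNA against the negative control. P-values set a difference of group means against the spread between arrays within groups, pooled over the 5 groups and moderated over all genes. The alternatives were other scalings, filters, probe-set rules, variance models, a replicate block and leaving out each array.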

Additional observations from a re-analysis of the deposited data

Results flagged for a closer look

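The siRNAs had the same target but differed in 20 of the 44 genes when compared directly (limma, adjusted p under 0.05), which is the test of the difference between their effects, since both were set against the same negative control. Higher with Si1 than with Si6 were the alpha subunits Psma7 (0.52) and Psma6 (0.16) and the inducible subunits Psmb10 (0.34), Psmb8 (0.29) and Psmb9 (0.27). In the base the same was true of Psmd2 (0.34), Psmc2 (0.33), Psmc5 (0.33), Psmc4 (0.19) and Psmd4 (0.16). In the lid it was true of Psmd12 (0.32), Psmd8 (0.24), Psmd7 (0.19), Psmd11 (0.17) and Psmd6 (0.14). The chaperone Psmd9 (0.20) and the activator Psme1 (0.25) were also higher with Si1. Lower with Si1 were Psmd10 (-0.62), Psmb6 (-0.44) and Psma2 (-0.21).

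The second probe set of Psmc2 differed by -0.18 between Si1 and Si6 (adjusted p = 0.046), against 0.33 for the probe set that stands for the gene. That of Psma5 differed by 0.21 (adjusted p = 0.031), against -0.05 (adjusted p = 0.849) for the probe set that stands for the gene. The calls for Psma2 and Psmd4 missed the threshold in 15 and 8 of the 25 other settings.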

How the results depend on the processing

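The 140 calls of single genes over the 7 comparisons were recomputed under 25 other settings, of which 15 left out an array each. None changed direction, 24 were lost in at least 1 of the settings that kept all arrays, and 26 when some array was left out. No setting put a second probe set in place of the chosen one, and that of Psmc2 went the other way with Si1. The count of genes called in Si1 against Si6 was 11 when only the compared groups were fitted, and 13 to 20 with an array left out. The median change in the hypoxia control was -0.0686 when the lowest 50% of genes were left out, where 38 of the 44 genes were tested, and -0.06 to -0.04 with an array left out. With Si1 the median was 0.30 with median centring, 0.30 and 0.32 without the lowest 25% and 50% of genes, and 0.26 to 0.29 with an array left out. With Si6 it was 0.21 after a repeated quantile normalization and 0.30 with median centring, and for the mean of both siRNAs 0.31 with median centring. Samples with the same letter in different groups did not deviate together, with correlations of -0.22 to 0.205 over 30 pairs (median -0.002). With the letter as a replicate block, the genes called numbered 8 for hypoxia control over normoxia, 14 for negative control over normoxia, 7 for negative control over hypoxia control, 28 for Si1, 30 for Si6, 29 for their mean and 18 for Si1 against Si6. Without it they numbered 8, 15, 7, 29, 30, 31 and 20. Where a cause is not given by the setting itself, the cause was not tested. Without detection calls, changes of the dimmest genes (Psma5, Psma8, Psmb11, Psmb8, Psmb9) are the least certain.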
